A study of Homo sapiens with 17 samples.

Results

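The mRNAs of 8 histone variant genes were followed in HEK-293T cells, a human embryonic kidney line, after 1 h of emetine, a drug that blocks translation elongation. The genes were taken by symbol from the 19222 genes listed in the 1 h experiment. They encode the linker histone H1X (*H1FX*), the H2A variants H2A.Z (*H2AFZ* and *H2AFV*), H2A.X (*H2AFX*), macroH2A1 (*H2AFY*) and H2A.J (*H2AFJ*), and the replacement histone H3.3 (*H3F3A* and *H3F3B*). The 1 h experiment held 3 untreated libraries and 3 libraries with 1.8 µM emetine, all from wild-type cells given 500 µM s4U during the hour. It also held 1 untreated and 1 emetine library without s4U. A second experiment had 3 untreated libraries, 3 libraries with 1.8 µM emetine and 3 libraries with 240 µM emetine, all given 250 µM s4U for 2 h. In TimeLapse sequencing (TL-seq), s4U built into new RNA is read as T-to-C changes, so that each library separates labeled RNA, made during the hour, from unlabeled RNA that was there before.

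Replication-dependent histone genes are transcribed in S phase as intronless mRNAs that end in a stem-loop instead of a poly(A) tail. Replacement and linker variant genes are used throughout the cell cycle, and most of their mRNAs are polyadenylated like other mRNAs. H3.3 is placed in chromatin outside replication by chaperones such as HIRA and DAXX, H2A.Z is exchanged by the SRCAP and EP400 complexes, and H2A.X is phosphorylated around DNA breaks. Linker histones such as H1X bind the DNA where it enters and leaves the nucleosome. The 1 h libraries were made with a poly(A)-selecting kit, so non-polyadenylated transcripts are measured only in part.

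The libraries with s4U held 22246279 to 40018063 reads assigned to 1 gene. All 6 markers fixed for this line were above a median of 1 CPM (counts per 1000000 gene reads), while of 10 markers of other cells 2 were above it, both collagen genes, and *PTPRC*, *CD3E* and *KRT5* had no reads. Emetine replicate 3 stood apart. The SD of its log2 levels against the other emetine libraries was 0.39, compared with 0.13 to 0.23 in the other 5 libraries. Over the 8 variant genes its median log2 difference from the other emetine libraries was −0.38, so the levels below are also given without it. Nothing in the labels says that replicates came from separate cultures, so p-values measure the spread between these libraries.

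Both *H3F3A* (chromosome 1, 226061851 to 226072019, plus strand, GRCh38) and *H3F3B* (chromosome 17, 75776434 to 75785893, minus strand) encode H3.3, and both have 4 exons in their canonical transcripts. Their coding regions of 411 bases gave the same 136 residues but differed at 88 bases, an identity of 78.6%. All 79 codons that differed encoded the same residue. Coding bases 181 to 300 are shown with the 29 bases that differ between both genes in capitals, because these bases decide whether a read can be told apart between them.
H3F3A: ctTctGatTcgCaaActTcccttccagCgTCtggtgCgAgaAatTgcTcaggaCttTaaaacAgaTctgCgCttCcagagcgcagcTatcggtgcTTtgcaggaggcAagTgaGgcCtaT
H3F3B: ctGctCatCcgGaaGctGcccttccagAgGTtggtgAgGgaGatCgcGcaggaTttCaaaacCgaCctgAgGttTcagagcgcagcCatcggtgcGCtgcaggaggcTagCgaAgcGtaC

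The share of G or C at the last codon position was 44.5% in *H3F3A* and 71.5% in *H3F3B*. The H2A.Z genes *H2AFZ* (chromosome 4, 99948086 to 99950355, minus strand) and *H2AFV* (chromosome 7, 44826791 to 44848087, minus strand) have 5 exons each. They encode proteins of 128 residues that differed at 3, and their coding regions differed at 76 of 387 bases.

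*H2AFX* (chromosome 11, 119093874 to 119095465, minus strand) was the only one of the 8 genes whose canonical transcript held the histone stem-loop, which lay 49 bases after the stop codon inside a longer 3′ UTR of 1089 bases. All 46 replication-dependent genes that could be matched to a coding transcript, of 51 listed, held it. The element is shown in capitals for *H2AFX* and, from that group, for *HIST1H1C* and *HIST1H2BK*, whose values are given further on.
H2AFX: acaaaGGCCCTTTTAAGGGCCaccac
HIST1H1C: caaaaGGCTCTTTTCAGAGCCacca
HIST1H2BK: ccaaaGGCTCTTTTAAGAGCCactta

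These elements lie on the minus strand of GRCh38, at chr11:119094893-119094918 for *H2AFX*, chr6:26055740-26055764 for *HIST1H1C* and chr6:27146361-27146386 for *HIST1H2BK*. Variant genes with 1 exon in their canonical transcript are called intronless here. Besides *H2AFX* they were *H1FX* (chromosome 3, 129314771 to 129316286, minus strand) and *H2AFJ* (chromosome 12, 14774405 to 14778002, plus strand). The canonical transcript of *H2AFJ* has 620 bases, which is shorter than the span of the gene. *H2AFY* (chromosome 5, 135334381 to 135399914, minus strand) had 9 exons and the longest coding region of the group at 1119 bases, since macroH2A1 carries a macro domain behind its H2A part. All sequences and positions are from GENCODE 44.

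Reads could be given to a single gene for 7 of the 8. For *H3F3A*, 12 reads in the 6 libraries with s4U were given to it alone, while 38046 were given jointly to *H3F3A* and *H3F3AP4*, a processed pseudogene on chromosome 2. A further 14932 reads were given to *H3F3AP4* alone. Of the 50-base windows of the *H3F3A* transcript, 72.7% also occur in a transcript of another gene, compared with 8.28% for *H3F3B* and less in the rest. With *H3F3AP4* alone it shares 35.5%, and with the entry that shares most, which has no gene symbol, 37.2%. Why the reads were given jointly was not tested. The joint reads all carried the position of *H3F3A* on chromosome 1, and they stand for *H3F3A* in what follows, a choice made after seeing the data. Their level omits whatever part of the reads given to *H3F3AP4* alone, or placed at other genes that share windows, came from *H3F3A*. How much was left out was not measured. The start of *H3F3A* overlaps *H3-3A-DT*, a noncoding gene on the other strand, and whether the counting used strand was not given in the sources used here.

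*H2AFZ* had by far the highest level per length in untreated cells, at 1079 ± 36.5 CPM per kb (SD, n = 3). It was followed by *H2AFX* at 224 ± 13.7, *H3F3A* at 221 ± 28.2 and *H3F3B* at 218 ± 3.74 CPM per kb, and the ranges of these 3 genes overlapped. The level of *H3F3A* is that of its joint reads and may leave out reads placed at other genes. *H2AFY* had 186 ± 3.86 and *H1FX* 161 ± 9.66 CPM per kb. The lowest were *H2AFV* at 66.7 ± 2.61 and *H2AFJ* at 32.2 ± 2.54 CPM per kb. Apart from the trio of *H2AFX*, *H3F3A* and *H3F3B*, no neighbours in this order overlapped between untreated libraries. *H2AFX* holds the stem-loop, and any of its RNA without a poly(A) tail was measured only in part by the poly(A)-selecting kit. The same limit applies to its fraction new below.

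**Figure D1:**
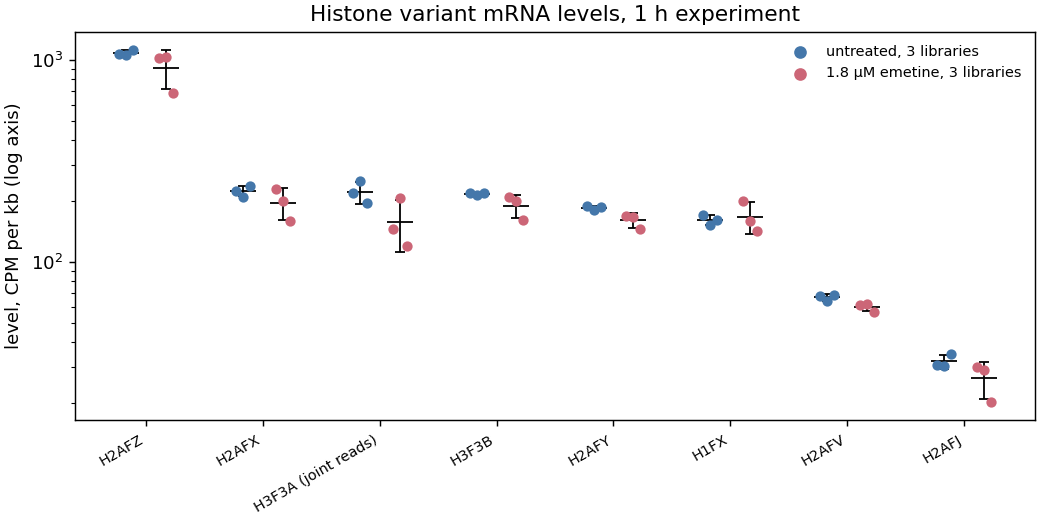
Level of each histone variant gene in CPM per kb of its canonical transcript, on a log axis, for the 3 untreated and 3 emetine libraries with s4U; points are libraries, and bars give the mean and SD. *H2AFZ* lies above all others, and the lowest emetine point of *H2AFZ*, at 591 CPM before division by length, is emetine replicate 3.

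The share of new RNA, here called the fraction new, ordered the genes differently. It was estimated in each library from the T-to-C changes per read. In untreated cells it was 25.1% ± 3.21 (SD, n = 3) for *H2AFX*, 16.7% ± 0.886 for *H1FX*, 14.7% ± 6.05 for *H2AFJ* and 12.8% ± 1.45 for *H3F3B*. The ranges of *H2AFX* and *H1FX* were apart, while *H2AFJ* overlapped with *H1FX* and *H3F3B*. Below it, *H2AFZ* had 6.16% ± 1.10, *H2AFV* 5.98% ± 0.891, *H3F3A* 3.87% ± 1.01 and *H2AFY* 3.86% ± 1.09. The median over all 10763 genes that reached 100 reads in every library was 12.2% in untreated and 10.7% in emetine libraries. The 3 intronless genes held the 3 highest means in untreated cells, as a description of 8 genes. The mean of *H2AFJ* rests on untreated replicate 3, at 21.6%, and *H2AFJ* was above *H3F3B* in 1 of 3 untreated libraries.

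**Figure D2:**
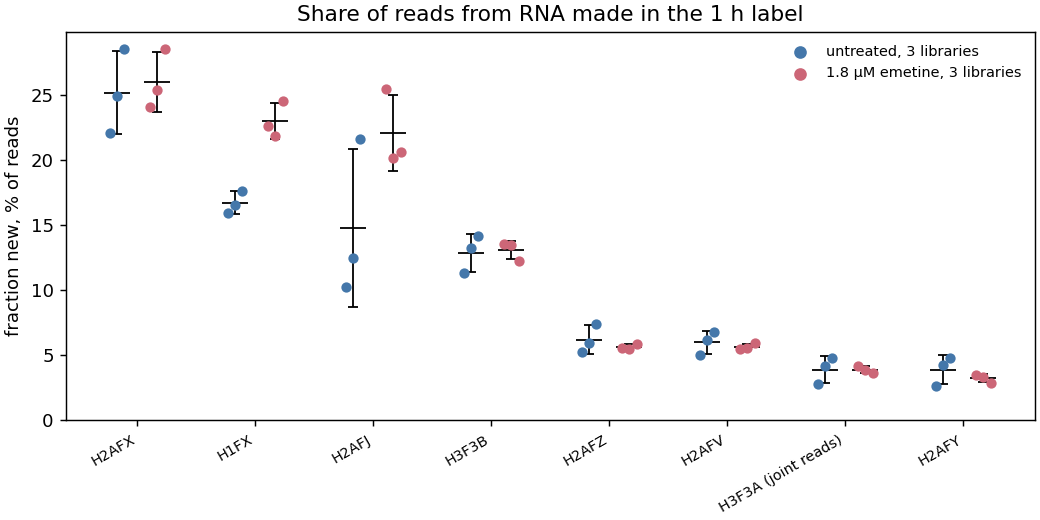
Fraction new, in percent of each gene's reads, for the 3 untreated and 3 emetine libraries with s4U; points are libraries, and bars give the mean and SD. The emetine libraries of *H1FX* lie between 21.8% and 24.5% and its untreated libraries between 15.9% and 17.6%, and the groups of the other genes overlap.

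Without centering of the libraries, no variant gene passed the test of the fraction new between emetine and untreated libraries. Of the 8, 0 were called higher and 0 lower by limma, beside 0.214% and 4.83% of all genes tested. Before adjustment over all genes, 1 of the 8, *H2AFJ*, was under 0.05. The share of all genes under that cut is not given, so this count cannot be set against it.

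The fraction new of *H1FX*, the linker histone gene, was 15.9%, 16.5% and 17.6% in untreated and 22.5%, 21.8% and 24.5% in emetine libraries. The groups did not overlap, as in 2.19% of all genes with emetine above untreated and 16.8% with emetine below. The change in logit of 0.40 did not pass the test (standard error 0.21, adjusted p = 0.326 from limma). *H2AFJ*, which had only 333 to 725 reads per library, had 10.2%, 12.4% and 21.6% in untreated and 25.4%, 20.1% and 20.6% in emetine libraries. Untreated replicate 3 lay among the emetine libraries, and the change of 0.54 did not pass either (standard error 0.22, adjusted p = 0.153 from limma). With each library centered on its median logit, both changes passed, at 0.52 for *H1FX* (adjusted p = 0.0452) and 0.66 for *H2AFJ* (adjusted p = 0.0379 from limma). Centering raised the number of all genes called higher from 23 to 126. With a replicate block added to the centering, neither change passed (adjusted p = 0.0889 and 0.0626 from limma).

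In the other 6 genes the fraction new changed by between −0.17 (*H2AFY*) and 0.05 (*H2AFX*) on the logit scale, and the groups overlapped in each. The median change of the 8 variant genes was 0.02, beside −0.16 over all genes tested, of which 75.6% were below 0. *H2AFX*, the DNA damage variant, had 22.1%, 24.9% and 28.5% in untreated and 24.0%, 25.4% and 28.5% in emetine libraries. Without a test of a difference from all other genes, the values say only that these genes did not pass.

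The share of reads with at least 2 T-to-C changes needs no model. In *H1FX* it was 10.0% ± 0.274 in untreated and 13.3% ± 0.369 in emetine libraries (SD, n = 3), and in *H3F3B* 10.5% ± 0.957 and 10.5% ± 0.956. The change in logit of this share in *H1FX*, 0.32, did not pass (adjusted p = 0.357 from limma). In the libraries without s4U, the background of this measure, it was at most 0.103% in these genes.

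The level of each gene can be split by the fraction new into labeled and unlabeled reads, tested as log2(CPM + 0.5). Labeled reads of 0 of the 8 variant genes were called higher over the 6 libraries, beside 0.26% of all genes, and of 0 lower, beside 0.632%. Before adjustment over all genes, 1 of the 8, *H1FX*, was under 0.05 in limma, again without a share of all genes to set it against.

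**Figure D3:**
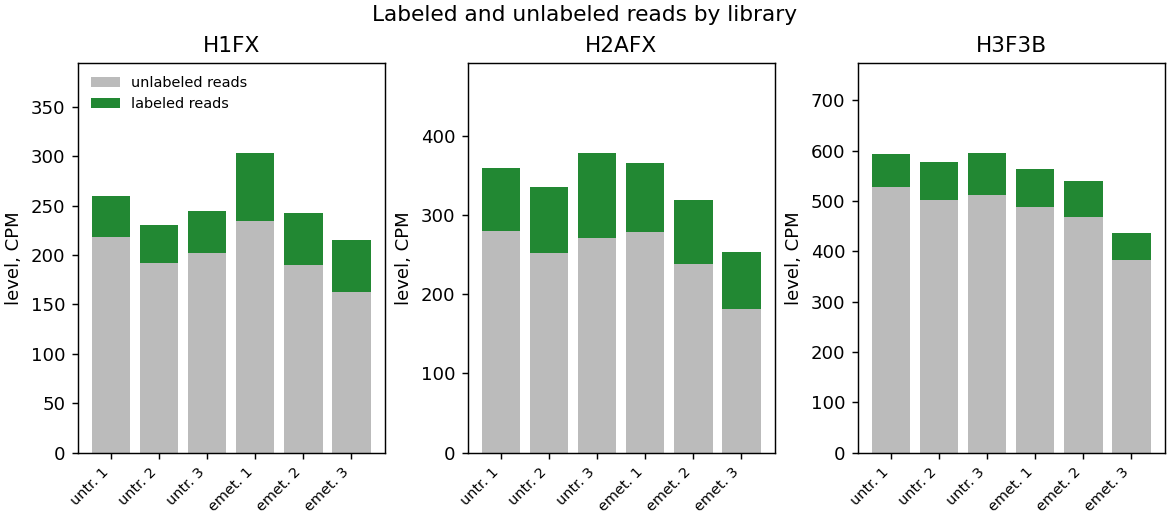
Labeled (green) and unlabeled (grey) reads of *H1FX*, *H2AFX* and *H3F3B* in each of the 6 libraries with s4U, stacked, in CPM. The green part of *H1FX* is 38.1 to 43.1 CPM in the untreated and 52.6 to 68.4 CPM in the emetine libraries, while those of *H2AFX* and *H3F3B* overlap between groups.

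Labeled *H1FX* reads were at 41.2, 38.1 and 43.1 CPM in untreated and 68.4, 52.8 and 52.6 CPM in emetine libraries. The groups were apart, as in 3.31% of all genes with emetine above untreated. The log2 change of 0.49 did not pass over all genes (standard error 0.21, adjusted p = 0.304 from limma). Of the 6 fits with a library left out, it passed only without untreated replicate 1 (adjusted p = 0.0439 from limma), where 64 genes were called higher, compared with 28. In the other fits its adjusted p was 0.357 to 0.946. Labeled reads of the H2A.Z, H2A.X, macroH2A1 and H3.3 genes had log2 changes between −0.47 and −0.15, none called over all 6 libraries. Only without untreated replicate 1 were those of *H2AFY* (−0.66, adjusted p = 0.0189) and *H3F3A* (−0.69, adjusted p = 0.0304) called lower by limma. In that fit 1737 genes in all were called lower, compared with 68 over all 6 libraries. Untreated replicate 1 had the lowest fraction new over all reads, 7.84% compared with 9.19% to 11.7% in the other libraries.

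Unlabeled reads had a negative log2 change in all 8 genes, between −0.08 (*H1FX*) and −0.52 (*H3F3A*), with a median of −0.21 beside 0.04 over all genes. None of the 8 was called by limma over all 6 libraries, while 7.3% of all genes were called higher and 0.0929% lower. Before adjustment 2 of the 8, *H2AFJ* and *H3F3A*, were under 0.05, and the share of all genes under that cut is not given. *H3F3A* was called lower only without emetine replicate 2 (−0.75, adjusted p = 0.0128 from limma). The emetine libraries lay below the untreated libraries in 5 of the 8 genes (*H2AFZ*, *H2AFV*, *H2AFY*, *H2AFJ* and *H3F3B*), as they did in 16.2% of all genes. Without emetine replicate 3 the median of the 8 genes was −0.10, beside 0.03 over all genes, and the change of *H1FX* was 0.05.

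**Figure D4:**
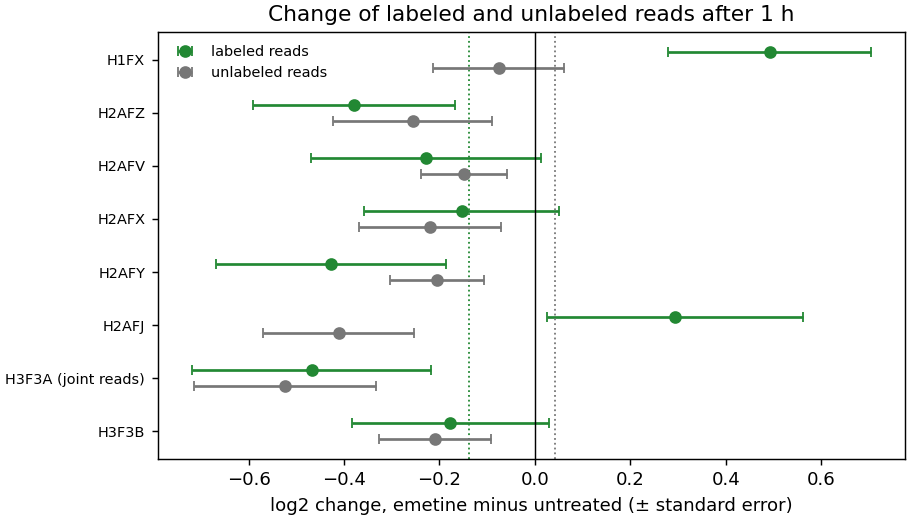
Log2 change of labeled (green) and unlabeled (grey) reads, emetine minus untreated, with standard errors from limma; dotted lines mark the medians over all genes, −0.14 and 0.04. Labeled *H1FX* reads stand at 0.49, and all unlabeled changes are below 0.

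No total level passed the test over the 6 libraries. In bulk RNA, fewer cells using a gene and less of its RNA per cell cannot be told apart. *H1FX* was at 259, 230 and 245 CPM in untreated and 303, 242 and 215 CPM in emetine libraries, and the groups overlapped. In 0 of the 8 genes were all emetine libraries above all untreated libraries, beside 19.5% of all genes. The change of *H1FX* was 0.05 on the log2 scale (adjusted p = 0.835 from edgeR, standard error 0.13), and 0.16 without emetine replicate 3.

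The remaining variant genes had negative log2 fold changes, from −0.15 (*H2AFV*) to −0.49 (*H3F3A*). None of the 8 was called by edgeR, beside 2.65% of all 13776 genes called higher and 0.0436% called lower. Before adjustment over all genes, 1 of the 8, *H3F3A*, was under 0.05 in edgeR, and the share of all genes under that cut is not given. DESeq2 called none of the 8. *H2AFZ* was at 922, 912 and 971 CPM in untreated and 890, 895 and 591 CPM in emetine libraries, so its log2 fold change of −0.24 was −0.06 without emetine replicate 3. Leaving out that library also moved *H2AFV* from −0.15 to −0.11, *H2AFX* from −0.19 to −0.055, *H2AFY* from −0.21 to −0.14, *H2AFJ* from −0.27 to −0.11, *H3F3B* from −0.20 to −0.089 and *H3F3A* from −0.49 to −0.33. *H3F3A* was at 233, 269 and 209 CPM in untreated and 155, 222 and 127 CPM in emetine libraries. It was called lower in 1 of the 6 fits with a library left out, that without emetine replicate 2 (log2 fold change −0.75, adjusted p = 0.0376 from edgeR). *H2AFY* was at 361, 348 and 359 CPM in untreated and 323, 321 and 277 CPM in emetine libraries. These were all below, as they were for *H2AFZ*, *H2AFV*, *H2AFJ* and *H3F3B* and for 15.2% of all genes.

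The median log2 fold change of the 8 genes was −0.20, beside 0.03 over all genes, and −0.10 beside 0.01 without emetine replicate 3. These directions are relative to the bulk of mRNAs. When reads of added spike-in RNAs set the scale, the median of all genes was 0.71 and all 8 variant genes had positive values, from 0.07 (*H3F3A*) to 0.78 (*H1FX*). None was called, with standard errors of 0.44 to 0.48 and adjusted p of 0.253 to 0.878 from edgeR. Spike-in reads made up 0.304%, 0.666% and 0.408% of reads in emetine libraries and 0.480% to 0.728% in untreated libraries. Only *H1FX* was above the median of all genes, under spike-in scaling as under TMM, RLE and DESeq2.

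Without s4U and without TMM scaling, *H1FX* was at 295 CPM in untreated cells (95% Wilson interval 288 to 302) and at 305 in the emetine library (299 to 311). The ratio was 1.03, as was the median over all genes. On the same scale the libraries with s4U held 221 to 252 in untreated and 236 to 311 in emetine libraries, so the untreated library without s4U lay above the 3 with it. *H2AFZ* was at 937 and 857 CPM without s4U. *H3F3A* was at 147 in untreated cells without s4U, below the 199 to 258 of the untreated libraries with s4U, and at 155 in the emetine library. With 1 library for each treatment there was no test, and the intervals cover counting error only.

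The H3.3 genes, which share a protein, and the H2A.Z genes, whose proteins differ at 3 residues, were each compared as a pair within libraries, where sampling and labeling are common to both. The fraction new of *H3F3B* exceeded that of *H3F3A* in 6 of 6 libraries. *H3F3B* had 11.3%, 13.2% and 14.1% in untreated and 13.5%, 13.4% and 12.2% in emetine libraries. *H3F3A* had 2.75%, 4.13% and 4.72% in untreated and 4.11%, 3.84% and 3.58% in emetine libraries. The difference in logit was 1.32 ± 0.104 (SD, n = 6), an odds ratio of 3.75, with p = 0.0312 in an exact two-sided sign-flip test, the smallest that 6 libraries allow, and 0.0625 after adjustment over the 2 pairs. With emetine the difference changed by 0.0036 (exact permutation p = 1, with 0.1 as the smallest possible).

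Over all reads, the fraction new of the H2A.Z genes differed little, while their junction reads, given further on, were apart. *H2AFZ* had 5.21%, 5.90% and 7.36% in untreated and 5.56%, 5.47% and 5.82% in emetine libraries. *H2AFV* had 5.03%, 6.12% and 6.79% in untreated and 5.43%, 5.49% and 5.88% in emetine libraries. *H2AFZ* was higher in 3 of 6 libraries, and the difference in logit was 0.02 ± 0.0441 (SD, n = 6), between −0.04 and 0.09 in single libraries (p = 0.5, and 0.5 adjusted, exact sign-flip test). Its change with emetine was −0.03 (exact permutation p = 0.6). Their levels were far apart, with *H2AFZ* at 15.8 to 16.5 times *H2AFV* per kb in untreated libraries. *H3F3B* was at 0.850 to 1.13 times *H3F3A* per kb in untreated libraries, and at 0.961 to 1.44 times in emetine libraries. These ratios use the joint reads of *H3F3A*, which may leave out reads placed at other genes.

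**Figure D5:**
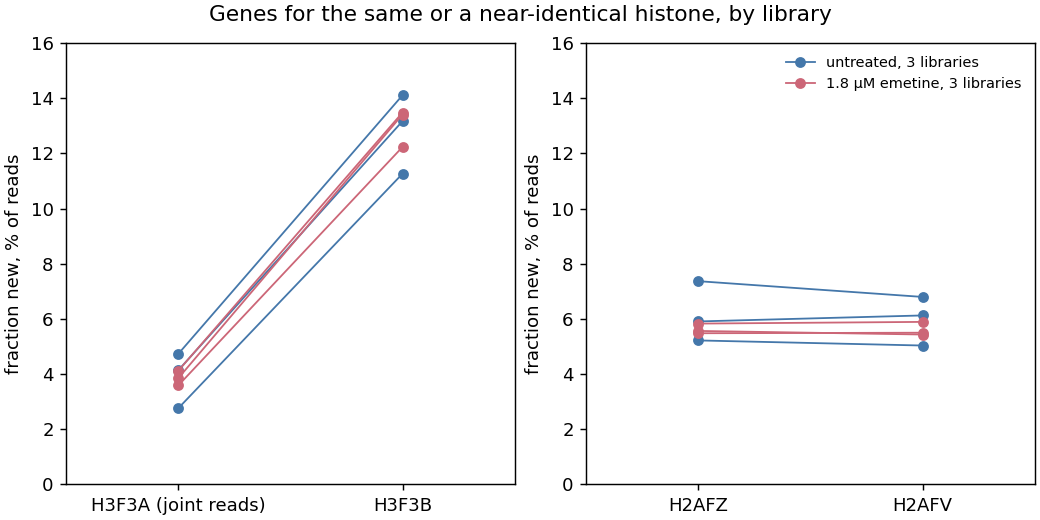
Fraction new, in percent, of *H3F3A* and *H3F3B* (left) and of *H2AFZ* and *H2AFV* (right), with each line joining the values of 1 of the 6 libraries with s4U. All lines of the H3.3 pair rise, from 2.75% to 4.72% up to 11.3% to 14.1%, and those of the H2A.Z pair stay between 5.03% and 7.36%.

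Reads that crossed a splice junction gave the same order for the H3.3 pair. In *H3F3A* 81.9% to 87.3% of the reads crossed a junction, and their fraction new was 3.79% ± 0.956 in untreated and 3.69% ± 0.279 in emetine libraries (SD, n = 3). In *H3F3B* 24.6% to 30.7% did, with a fraction new of 15.6% ± 1.41 and 14.7% ± 0.968. Reads given to *H3F3AP4* alone held 4.31% ± 0.710 new RNA in untreated and 4.20% ± 1.09 in emetine libraries. Whether some of them came from *H3F3A* was not tested. The H2A.Z pair, close over all reads, was apart in its junction reads. In *H2AFZ* these held 5.73% ± 1.07 new RNA in untreated and 5.01% ± 0.196 in emetine libraries, and in *H2AFV* 2.63% ± 1.00 and 2.38% ± 0.245, with *H2AFZ* higher in 6 of 6 libraries. Reads without a junction had the other order in the means, at 6.73% ± 1.05 for *H2AFZ* and 7.57% ± 0.853 for *H2AFV* in untreated cells. Junction reads were not tested. In *H2AFY*, the junction reads held 2.31% ± 0.750 and the others 5.11% ± 1.35 in untreated cells. In the intronless gene *H2AFJ*, at most 1.36% of reads in any library were marked as crossing a junction, in *H1FX* at most 1.59% and in *H2AFX* at most 4.53%.

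Over 12 values, the log2 level and the logit of the fraction new in each of the 6 libraries, the genes nearest to *H3F3A* among 10763 were *GABARAP* (Euclidean distance 0.57), *GIPC1* (0.63) and *ATP6V0E2* (0.64). Those nearest to *H3F3B* were *RBMX* (0.47), *SF1* (0.48) and *CNBP* (0.51). *H3F3A* was 4.91 away from *H3F3B*. The distances share libraries and depth and are given as a description.

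In the 2 h experiment, made with a total RNA kit, the authors' mean of normalized counts over all libraries was 7915 for *H2AFZ*, 3488 for *H3F3B*, 3478 for *H2AFV*, 3472 for *H2AFX*, 2490 for *H2AFY* and 1114 for *H1FX*. The median of the 9982 genes listed was 845. Divided by transcript length, *H2AFZ* was the highest of these 6 genes at 9140 per kb, as in the 1 h experiment. *H2AFX* was at 2181, *H3F3B* at 1289 and *H2AFV* at 1149 per kb, and *H1FX* was the lowest at 735. In untreated cells of the 1 h experiment the lowest of these 6 was instead *H2AFV*, at 66.7 CPM per kb, below *H1FX* at 161. *H2AFJ* and *H3F3A* were not among the genes listed. These means carry no spread and do not separate the treatments.

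Replication-dependent histone genes were read beside the variants. Of 51 listed, 22 had enough reads for the test of levels, and edgeR called 4 of them higher and 0 lower, beside 2.65% and 0.0436% of all genes, with a median log2 fold change of 0.51 beside 0.03 over all genes. The called genes were *HIST2H2BE* (log2 fold change 1.21, adjusted p = 0.0151), *HIST1H2AC* (1.16, 0.0241), *HIST1H3D* (2.18, 0.0243) and *HIST1H2BD* (0.78, 0.0473). Their levels in untreated cells were between 0.357 and 3.80 CPM, so these calls rest on few reads. Only 3 of the 51 reached 100 reads in every library. Among them the linker histone *HIST1H1C* went from 16.8% ± 2.85 to 58.0% ± 3.58 new RNA, and *HIST1H2BK*, an H2B gene, from 5.63% ± 1.91 to 18.9% ± 1.72 (SD, n = 3). Their logits rose by 1.94 (adjusted p = 1.33e-09) and 1.40 (adjusted p = 5.34e-06 from limma). These were 2 of 3 genes called higher in fraction new, beside 0.214% of all genes. Labeled reads of all 3, including *HIST3H2A* (log2 change 1.25, adjusted p = 0.00171 from limma), were called higher, beside 0.26% of all genes. All 3 genes hold the stem-loop, and the poly(A)-selecting kit measures transcripts without a poly(A) tail only in part. Unlabeled reads of these 3 had a median log2 change of −0.40, beside 0.04 over all genes, and none was called. The total level went from 26.8 ± 0.889 to 38.25 ± 6.15 CPM in *HIST1H1C* and from 106 ± 11.0 to 94.1 ± 14.7 CPM in *HIST1H2BK* (SD, n = 3).

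Of 9 other histone variants, 4 were listed and 3 tested. For *CENPA*, the centromeric H3 variant, the fraction new fell from 24.2% ± 6.94 to 13.1% ± 1.03 (change in logit −0.73, adjusted p = 0.0261 from limma), and the call was lost without emetine replicate 3 (adjusted p = 0.184). Among the 32 genes for chaperones and deposition complexes, edgeR called 2 higher and 0 lower, beside 2.65% and 0.0436% of all genes. They were *HJURP*, the CENPA chaperone (log2 fold change 0.55, adjusted p = 0.0163), and *INO80*, a remodeler of H2A.Z nucleosomes (0.64, adjusted p = 0.0302). The fraction new of *HJURP* fell from 48.2% ± 6.94 to 24.9% ± 0.785 (adjusted p = 0.00143 from limma), and its unlabeled reads had a log2 change of 1.08 (adjusted p = 0.000627). Over this list the log2 fold changes of levels had a median of −0.04, beside 0.03 over all genes.

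Of 21 genes for the 3′ end processing and decay of histone mRNAs, 19 were tested, and edgeR called 2 higher and 0 lower, beside the same shares of all genes. They were *ZNF473*, a U7 snRNP-associated zinc finger protein (log2 fold change 0.55, adjusted p = 0.0330), and *MTPAP*, a poly(A) polymerase (0.38, adjusted p = 0.0447). Unlabeled reads were called higher in 5 of the 19 by limma, beside 7.3% of all genes, with *ZNF473*, *LSM11*, *MTPAP* and *NPAT* having the smallest p-values, and lower in none. *LSM11*, a U7 snRNP subunit, had a lower fraction new (34.3% ± 7.72 to 20.2% ± 1.78, change in logit −0.72, adjusted p = 0.0312 from limma). That call was lost without emetine replicate 3 (adjusted p = 0.109).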

How the data were processed

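TL-seq libraries of HEK-293T cells were analysed. The authors removed adapters with cutadapt, mapped reads to hg38 with hisat-3n and, in the 1 h experiment, deposited counts of reads by gene, T positions, T-to-C changes and junction mark (bam2bakR). For 2 h, the authors deposited normalized signal: mean counts scaled to spike-ins (DESeq2). Their columns of fold changes, standard errors and p-values were not used, nor was the table of spike-in size factors. The annotation used for counting was not given in the sources used here. Per-library columns or names left unused numbered 0.

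Reads were summed per gene, and genes with more than 100 reads in total were tested with edgeR 4.0.16 (TMM, quasi-likelihood). The fraction new was the weight of a 2-component binomial mixture, with the background rate of the library without s4U of the same treatment (0.0504% and 0.0521% of T positions) and new-read rates of 8.49% to 9.53%. Its logit, bounded at 0.001 and 0.999, and log2(CPM × fraction + 0.5) of labeled and unlabeled reads were tested with limma 3.58.1 (trend, robust) in genes that reached 100 reads in every library. P-values were adjusted by Benjamini-Hochberg over all genes tested and called under 0.05. On simulated data, the edgeR step recovered 100% of 200 genes changed by 1.5 (log2) among 13776, and the limma step 99.5% of 200 changed by 1.5 (logit) among 10763. False calls made up 5.66% and 4.33% of the calls. All changes of the variant genes were smaller than 1.5, so these shares do not give the power to call them.

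Named genes were the 8 variant genes, up to 4 called genes with the smallest p per list and test, and the 3 nearest genes of *H3F3A* and *H3F3B*. The variant genes and lists were chosen with earlier results of these data known. Of the genes the group was defined with, 1 is not reported here. The comparison of *H3F3B* with *H3F3A* could not be run on reads given to *H3F3A* alone, so joint reads were used. Alternatives were DESeq2 1.42.0, RLE and spike-in scaling, other filters, rates and pseudocounts, centering, a replicate block and leaving out each library. Not all of these were run on the joint reads.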

Additional observations from a re-analysis of the deposited data

Results flagged for a closer look

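Reads given jointly to *H3F3A* and *H3F3AP4* lie outside the assignment to single genes on which the tests across genes rest, and are the data that stood out. The 6 libraries with s4U held 38046 of them, far above the 3 reads that a count of 0 allows, compared with 12 reads given to *H3F3A* alone. In single libraries they numbered 3398 to 9383.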

How the results depend on the processing

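Over all 6 libraries, the only variant genes called in any setting run were *H1FX* and *H2AFJ* in fraction new with centering. Neither was called with centering and the replicate block. For changes of *H3F3A*, joint reads were fitted with DESeq2, RLE and spike-in scaling (levels) and with each library left out. Centering, the replicate block and other filters, rates and pseudocounts were not run for them. No variant gene was called in a main fit, so no call could be lost. Over all alternatives, 299 of 327 values of the variant genes kept direction and stayed uncalled, 7 gained a call and 21 changed direction. All of the 21 were uncalled. For *H3F3B*, leaving out a library moved the level between −0.27 and −0.09, labeled reads between −0.27 and −0.02 and unlabeled reads between −0.28 and −0.10.

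With spike-in scaling the log2 fold changes of levels were 0.43 (*H2AFZ*), 0.53 (*H2AFV*), 0.52 (*H2AFX*), 0.47 (*H2AFY*), 0.41 (*H2AFJ*), 0.49 (*H3F3B*) and 0.072 (*H3F3A*, joint reads), since that scale moved the median of all genes. Centering each library turned the change in fraction new of *H2AFZ* to 0.038 and of *H2AFV* to 0.063, with the replicate block too, and the share of reads with 2 conversions turned *H2AFX* to −0.049 and the change of the H3.3 difference with emetine to −0.0048. Leaving out a library moved the level of *H1FX* between −0.10 and 0.16, its unlabeled reads between −0.22 and 0.054, the fraction new of *H2AFZ* between −0.17 and 0.013, of *H2AFV* between −0.15 and 0.0095, of *H2AFX* between −0.037 and 0.13, of *H3F3A* between −0.15 and 0.13 (−0.019 without emetine replicate 1) and of *H3F3B* between −0.052 and 0.077. It moved the H3.3 difference between 1.29 and 1.35 and its change with emetine between −0.057 and 0.095, and the H2A.Z difference between 0.0020 and 0.027 and its change between −0.059 and 0.0036.

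Genes called higher and lower in level numbered 365 and 6, but 820 and 156 with DESeq2, 60 and 0 with spike-in scaling, and 4 to 1367 and 0 to 525 with a library left out, the highest values without emetine replicate 3. Genes with a higher and lower fraction new numbered 23 and 520, but 14 and 298 with at least 50 reads, 14 and 227 with at least 500, 126 higher with centering, and 10 to 42 and 98 to 2522 with a library left out. For labeled reads these were 13 to 64 and 2 to 1737 (64, 1737 and the 2522 above without untreated replicate 1), and for unlabeled reads 282 to 1447 and 4 to 322. The cause was not tested.

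Across genes, deviations of same-numbered libraries correlated at 0.07, −0.02 and −0.18 (levels) and at 0.06, 0.00 and 0.02 (fraction new). These correlations leave out shifts common to all genes of a library, so they cannot show that the libraries were unpaired. With the replicate block 75 genes were called higher and 3 lower in level, 40 had a higher fraction new (48 with centering), and 350 had more unlabeled reads.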
